A study of Homo sapiens with 6 samples.

Results

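The genes described are 10 interferon-inducible antiviral effectors, MX1, MX2, RSAD2, CMPK2, BST2, SAMD9, SAMD9L, IFI44, IFI44L and RTP4, of 37887 gene symbols counted by RNA-seq in BT-549 cells. The members were chosen by name with their change in this same comparison of control and IRF1shRNA cells already known, so their differences are given as a description, with no test. BT-549 is an established line from a human triple-negative breast tumor. The 3 control samples received 0.1% DMSO, the vehicle, and 500 ng/ml doxycycline was given to the 3 IRF1shRNA samples, where it switches on a short hairpin RNA (shRNA) against the transcription factor IRF1. By their titles the vehicle samples carry a control shRNA, whereas the series text describes a single line with an inducible IRF1 shRNA in both groups. The effects of doxycycline and of the hairpin cannot be told apart, because no control received the drug. A single hairpin against IRF1 was used, in BT-549 cells only. If the titles are right, the groups also come from differently transduced cells, which cannot be told apart from the other effects. The labels describe the replicates as triplicate cultures, so p-values measure only the spread between these samples.

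Type I interferon, bound by its receptor, activates the kinases JAK1 and TYK2, which phosphorylate transcription factors such as STAT2. These join IRF9 in a complex that binds interferon-stimulated response elements (ISREs) near its target genes, and members of the IRF family, including IRF1, bind the same kind of element. The proteins made from these genes act at different steps of a viral life cycle. The MX GTPases trap incoming viral nucleoproteins or capsids, viperin (RSAD2) makes a chain-terminating nucleotide, tetherin (BST2) holds budding virions at the cell surface, and SAMD9 and SAMD9L restrict poxviruses.

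RefSeq promoter windows (GRCh38.p14, 250 bases before to 50 after an annotated start) were held for 9 members. MX2 had no entry. The 10-letter spelling GAAANNGAAA, the core of an ISRE, was searched on both strands, overlapping matches included. It was found in windows of 7 of the 9 members, IFI44L, IFI44, RSAD2, RTP4, SAMD9, BST2 and MX1, and not in those of CMPK2 and SAMD9L. The spelling occurred in 3.57% of all 35116 windows and, by gene, in 4.01% of the 12425 tested genes with a window. Of 24 other antiviral effectors with a window, 15 held it. The spelling with 1 base between the GAAA repeats, GAAANGAAA, was found in windows of 5 members, IFI44, CMPK2, RSAD2, SAMD9 and MX1, against 3.12% of all windows. By gene, GAAANGAAA was found in 3.53% of the tested genes with a window and in 7 of the 24 other effectors. This search was chosen after seeing the data. The spelling TTCNNNGAA, the core of the gamma-activated site, was found for BST2 and MX1 only among the 9 and in 7.66% of all windows. By gene, TTCNNNGAA was found in 8.76% of the tested genes with a window and in 6 of the 24 other effectors. A match is a description, not a binding site or a cause, and the absence of a match says only that these letters are not in the window.

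The stretches below are shown because they hold these matches in the genes whose levels are given next. All are RefSeq reference sequence, read 5′ to 3′ on the strand of the gene and taken before the annotated start, with GAAANNGAAA and GAAANGAAA matches of either strand in capitals (a match on the opposite strand reads TTTC first).
IFI44L (chr1:78620259-78620318, plus strand): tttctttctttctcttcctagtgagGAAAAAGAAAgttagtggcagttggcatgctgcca
IFI44 (chr1:78649746-78649788, plus strand): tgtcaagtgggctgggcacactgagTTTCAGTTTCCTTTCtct
CMPK2 (chr2:6865820-6865849, minus strand): cgcctgggcctccggcTTTCGTTTCcccgc
RSAD2 (chr2:6877622-6877651, plus strand): ctgtttcaacTTTCAGTTTCacatgtggaa
RTP4, first match (chr3:187368333-187368362, plus strand): tccatacacaGAAACAGAAActgaaccgaa
RTP4, second match (chr3:187368355-187368384, plus strand): gaaccgaacaccGAAACTGAAActgtttgt
SAMD9 (chr7:93118081-93118145, minus strand): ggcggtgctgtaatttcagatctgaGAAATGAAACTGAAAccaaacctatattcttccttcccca
BST2 (chr19:17405738-17405767, minus strand): tttctggGAAACTGAAACTGAAAacctaat
MX1 (chr21:41431844-41431873, plus strand): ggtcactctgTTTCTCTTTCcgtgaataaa
MX1, an earlier start (chr21:41426161-41426190, plus strand): ggtctgtgagTTTCATTTCttcgcggcgcg

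In GENCODE release 29 the SAMD9 and IFI44 stretches lie between genes, and the IFI44L and RSAD2 stretches lie in introns of longer transcripts of the same gene. The MX1 stretches fall in non-coding exons of other transcripts of that gene, and the CMPK2 stretch in a non-coding exon of RSAD2. The BST2 stretch falls in exons of BISPR and MVB12A on the opposite strand. The RTP4 stretches lie in exon bases, none of them coding, of the principal RTP4 transcript of that release, which starts before the RefSeq start. SAMD9 and BST2 each carried overlapping matches. In SAMD9 a GAAANGAAA match at position −141 from the start ran into a GAAANNGAAA match at −136, and in BST2 a GAAANNGAAA match at −130 overlapped another at −124. The IFI44L window held its element in 2 copies, at −164 and −73, within an exact repeat of 85 bases spaced 91 bases apart. RSAD2 and CMPK2 are transcribed away from each other, and the window of the upstream RSAD2 start held 4 GAAANGAAA matches, 2 of which are the same bases as the CMPK2 matches.

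The targeted gene was lower in every IRF1shRNA sample. IRF1 was at 45.3, 48.1 and 51.5 CPM (counts relative to the library total, which was scaled by the trimmed mean of M-values, TMM) in controls 1 to 3 and at 13.8, 14.9 and 14.6 CPM in IRF1shRNA samples 1 to 3. This left 29.9% of the control level, with a log2 fold change of −1.74 ± 0.06 (SE) and an adjusted p of 4.53e-13 (edgeR's quasi-likelihood test, Benjamini-Hochberg adjustment, as for every adjusted p in the text). Library totals ranged from 55143808 to 160436234 counts, with IRF1shRNA 2 the least deep, and 3 counts corresponded to 0.0182 to 0.0540 CPM. The mesenchymal markers VIM, CDH2, FN1 and SPARC were abundant, with VIM at 918 CPM in controls and 625 CPM in IRF1shRNA cells, whereas the epithelial markers were low, with CDH1 at 0.676 and 0.673 CPM and EPCAM at 0.0714 and 0.110 CPM. The keratins KRT8 (1.52 to 0.441 CPM, −1.70 ± 0.21 on the log2 scale, adjusted p = 2.71e-06) and KRT18 (6.34 to 2.92 CPM, −1.11 ± 0.09, adjusted p = 1.04e-08) fell. Of 9 listed leukocyte and plasmacytoid dendritic cell markers, CD3E, MS4A1, LYZ, CLEC4C, LILRA4 and NKG7 had 0 to 8 counts in every library. PTPRC had 42 to 80 counts, and CD14 moved from 1.09 to 2.22 CPM. The summed level of the 9 markers, most of it CD14 and PTPRC, was 1.53 to 1.797 CPM in controls and 2.52 to 3.33 CPM in IRF1shRNA cells, and its part in the results below was not tested.

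All 10 members were lower in IRF1shRNA cells. Each passed the threshold (adjusted p under 0.05 in edgeR), as did 26.4% of the 18851 genes tested, while 24.1% passed in the higher direction and no member did. A decrease of over 2-fold as well was found for 9 of the 10, all except MX2, and for 4.43% of all genes. In 10 of 10 members, every IRF1shRNA value lay below every control value, as it did for 29.5% of all genes. Nothing is read from these counts, since the same contrast chose the members. Their median log2 fold change was −4.74, against −0.0024 for all genes tested. Summed over the members, the level was 647 ± 102 CPM in controls and 38.6 ± 4.81 CPM in IRF1shRNA cells (SD, n = 3 each). In bulk RNA, fewer cells that express a gene and less RNA per cell cannot be told apart. All members passed the filter on low counts, and 9 were above its cutoff of 0.0802 CPM in every library. RTP4 passed through its control values alone.

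**Figure D1:**
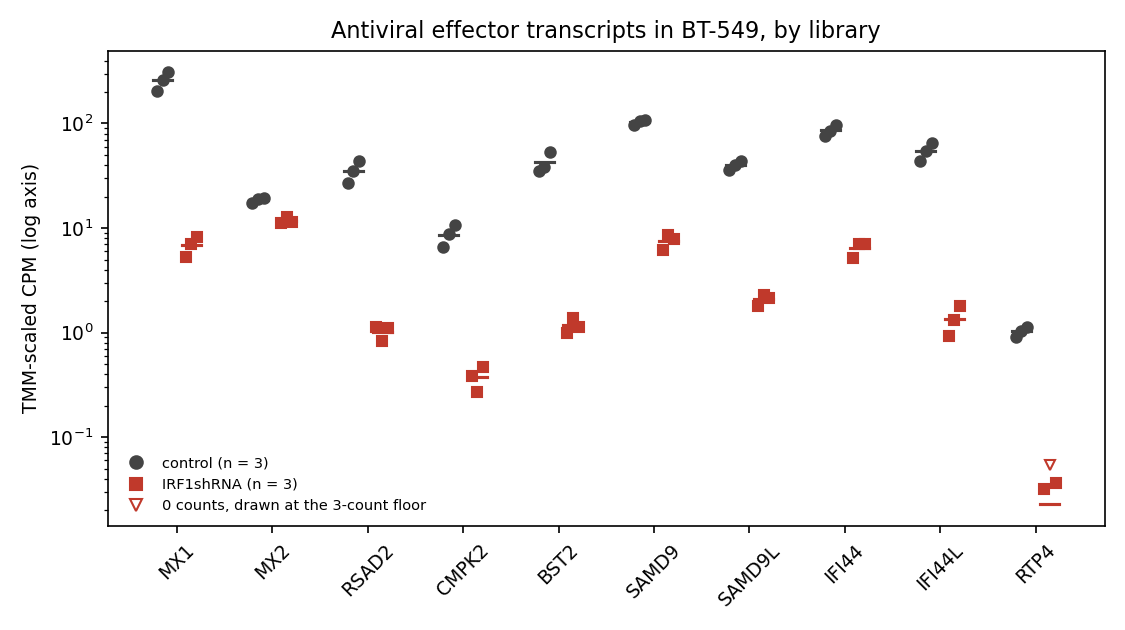
TMM-scaled CPM (log axis) of the 10 members in each library, with controls as grey circles, IRF1shRNA samples as red squares and the mean of each group as a line (n = 3 each). The groups are separate for every member and lie closest on the log axis for MX2 (17.2 to 19.4 against 11.1 to 12.9 CPM). The open triangle marks RTP4 in IRF1shRNA 2, which had 0 counts and is drawn at the level of 3 counts.

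The MX genes lie next to each other on chromosome 21 and differed most in size of change. MX1 (chr21:41420304-41459214, plus strand) encodes a cytoplasmic dynamin-like GTPase best known for blocking influenza viruses. Its transcript was at 205, 260 and 308 CPM in controls 1 to 3 and at 5.33, 7.03 and 8.29 CPM in IRF1shRNA samples 1 to 3. The lowest control was far above the highest IRF1shRNA sample, and 2.67% of the control level was left, a log2 fold change of −5.22 ± 0.15 (SE). MX2 (chr21:41361943-41409390, plus strand) encodes a GTPase at the nuclear envelope that restricts HIV-1. It was at 17.2, 19.0 and 19.4 CPM in controls and at 11.1, 12.9 and 11.3 CPM in IRF1shRNA cells. The groups did not overlap, but 63.4% of the control level was left, a log2 fold change of −0.66 ± 0.07, which was the smallest of the 10.

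Counts of MX1 and MX2 were therefore compared within each library, where the scaling has no part. There were 11.9, 13.7 and 15.9 counts of MX1 for each count of MX2 in controls 1 to 3, and 0.479, 0.546 and 0.731 in IRF1shRNA samples 1 to 3. MX1 had the higher count of the pair in every control, and MX2 in every IRF1shRNA library. MX1 made up 39.6% of the summed CPM of the 10 members in controls and 17.7% in IRF1shRNA cells, while the share of MX2 went from 2.90% to 30.7%. Of the 50-base words in MX1 transcripts, 28 of 8929 occurred in another gene, 19 of them in MX2. A gene antisense to MX1, AP001610.1, shares 236 of its exon bases, and the strand setting used in counting is not given in the sources used here.

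RSAD2 and CMPK2 form a divergent pair on chromosome 2 whose exons overlap by 14 bases. RSAD2 (chr2:6865806-6898239, plus strand) encodes viperin, the radical SAM enzyme that turns CTP into an analogue that stops viral polymerases. It was at 26.9, 34.8 and 43.6 CPM in controls and at 1.14, 0.829 and 1.10 CPM in IRF1shRNA cells. The groups were widely separate, with 2.92% of control left and a log2 fold change of −5.05 ± 0.16. CMPK2 (chr2:6840570-6866635, minus strand) encodes a mitochondrial nucleoside monophosphate kinase that phosphorylates CMP and UMP. Its level was 6.56, 8.87 and 10.6 CPM in controls and 0.381, 0.270 and 0.474 CPM in IRF1shRNA cells. Here 4.32% was left, a log2 fold change of −4.43 ± 0.19, and both genes were lowest in IRF1shRNA 2. The ratio of RSAD2 to CMPK2 counts was 4.05 ± 0.110 in controls and 2.80 ± 0.413 in IRF1shRNA cells (SD, n = 3 each), without overlap. Few counts lie behind the lower ratio, with 144, 46 and 181 of RSAD2 and 48, 15 and 78 of CMPK2 in IRF1shRNA samples 1 to 3. NRIR, a non-coding gene beside CMPK2, was counted 10 to 14 times in each control and 0 times in each IRF1shRNA library and did not pass the filter.

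BST2 (chr19:17402939-17405648, minus strand) encodes tetherin, a membrane protein that links enveloped virions to the cell they bud from. It was at 35.3, 38.3 and 53.9 CPM in controls and at 1.0, 1.37 and 1.14 CPM in IRF1shRNA cells. Control 3 stood above the other controls, and all 3 were far above the IRF1shRNA samples. The level left was 2.75% of control, a log2 fold change of −5.22 ± 0.15. The long non-coding RNA BISPR, which starts beside BST2 on the opposite strand and shares no exon bases with it, was at 0.698, 0.677 and 1.01 CPM in controls and at 0.111, 0.0901 and 0.158 CPM in IRF1shRNA cells. It fell by 2.64 ± 0.30 on the log2 scale (adjusted p = 1.11e-06, edgeR). MVB12A, a protein-coding gene that starts 0.074 kb from BST2, did not pass the threshold, at 19.3 and 20.8 CPM with a log2 fold change of 0.12 ± 0.07 (adjusted p = 0.175, same test).

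SAMD9 and SAMD9L, large cytoplasmic proteins that block poxvirus replication and whose activating mutations restrain cell growth, are encoded side by side on chromosome 7. SAMD9 (chr7:93099513-93118023, minus strand) was at 97.8, 105 and 107 CPM in controls and at 6.17, 8.58 and 7.83 CPM in IRF1shRNA cells. It had the tightest control values of the 10, with a coefficient of variation of 4.82%. SAMD9L (chr7:93130055-93148369, minus strand) was at 35.6, 40.5 and 43.9 CPM in controls and at 1.81, 2.27 and 2.15 CPM in IRF1shRNA cells. The log2 fold changes were −3.80 ± 0.08 and −4.28 ± 0.10, leaving 7.28% of SAMD9 and 5.19% of SAMD9L. The ratio of SAMD9 to SAMD9L counts was 2.60 ± 0.153 in controls and 3.61 ± 0.184 in IRF1shRNA cells, without overlap. No 50-base word of either transcript occurred in another gene.

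IFI44L and IFI44 are adjacent on chromosome 1 and encode related interferon-induced cytoplasmic proteins. IFI44 (chr1:78649796-78664078, plus strand) was at 76.5, 85.1 and 96.3 CPM in controls and at 5.16, 7.03 and 7.04 CPM in IRF1shRNA cells. IFI44L (chr1:78619922-78646145, plus strand) was at 43.7, 54.5 and 65.2 CPM in controls and at 0.921, 1.33 and 1.798 CPM in IRF1shRNA cells. The log2 fold change was −5.30 ± 0.18 for IFI44L, with 2.48% left, and −3.76 ± 0.10 for IFI44, with 7.45% left. For each count of IFI44L there were 1.75, 1.56 and 1.48 counts of IFI44 in controls 1 to 3, and 5.60, 5.27 and 3.91 in IRF1shRNA samples 1 to 3. The range within IRF1shRNA cells was wider than within controls, and the groups did not overlap.

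**Figure D2:**
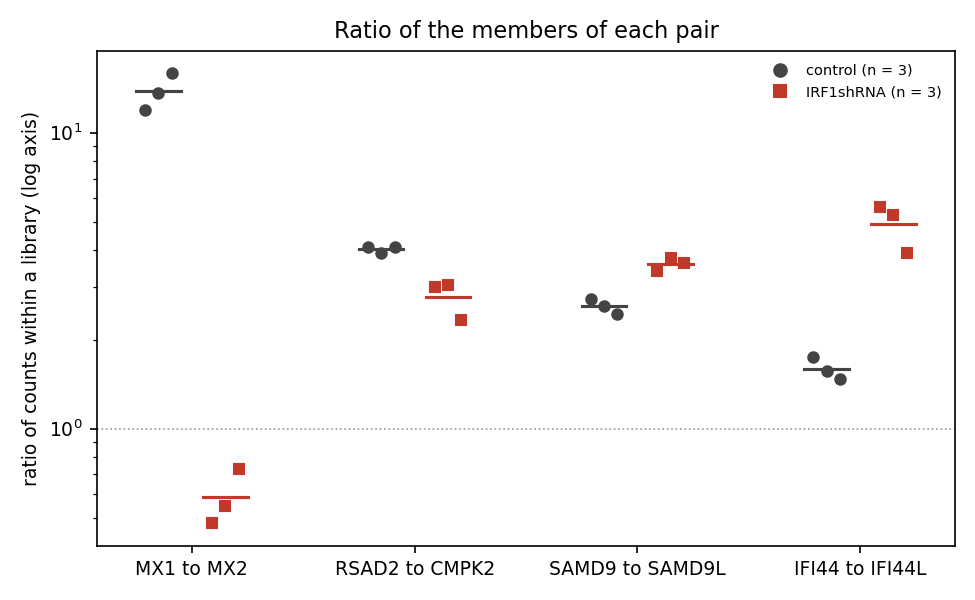
Ratio of the counts of the 2 genes of each pair within a library (log axis), for controls (grey circles) and IRF1shRNA samples (red squares), with the group mean as a line (n = 3 each). MX1 to MX2 goes from 13.8 to 0.586, RSAD2 to CMPK2 from 4.05 to 2.80, SAMD9 to SAMD9L from 2.60 to 3.61 and IFI44 to IFI44L from 1.60 to 4.93, with no overlap between the groups in any pair.

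RTP4 (chr3:187368332-187372076, plus strand) encodes a Golgi chaperone of G protein-coupled receptors that also restricts flaviviruses. Its CPM was the lowest of the members, at 0.917, 1.04 and 1.13 CPM in controls and at 0.0317, 0 and 0.0365 CPM in IRF1shRNA cells, from 4, 0 and 6 counts. The 0 was in the library of lowest depth, where 3 counts correspond to 0.0540 CPM. The log2 fold change was −5.13 ± 0.37, the widest error of the 10, with 2.21% of the control level left.

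To compare levels between genes, CPM was divided by the length of the principal transcript. Per kb, controls ranked MX1 at 74.3, IFI44 at 51.0, BST2 at 41.7, SAMD9 at 15.1, RSAD2 at 9.97, IFI44L at 9.27, MX2 at 6.10, SAMD9L at 5.61, CMPK2 at 3.01 and RTP4 at 0.662 CPM per kb. The control values of IFI44 and BST2, of RSAD2 and IFI44L, and of MX2 and SAMD9L overlapped, so the order within these neighbours was not beyond the spread. In IRF1shRNA cells MX2 (3.87 ± 0.313 CPM per kb) and IFI44 (3.80 ± 0.641) were at the top, followed by MX1 at 1.98. When the length of all annotated exons was used instead, the control order was IFI44 at 42.2, BST2 at 38.0 and MX1 at 29.9 CPM per kb. In IRF1shRNA cells the same length gave IFI44 at 3.14, SAMD9 at 1.10, BST2 at 1.05 and MX2 at 0.902 CPM per kb, so the top order depends on the transcripts taken, and MX2 was at the top with the principal transcript only.

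The members also varied together among the controls. Control 3 was the highest and control 1 the lowest of the controls for 10 of 10 members and for IRF1, an order that 27.6% of the 13066 genes averaging 1 CPM or more showed. The order was not particular to the members. OAS1 showed it too, at 46.1, 58.5 and 67.1 CPM in controls 1 to 3, as did USP18 at 9.81, 12.6 and 14.7 CPM. IFITM2 and ISG20 did not and were lowest in control 2. The highest control was 1.62-fold above the lowest for RSAD2, 1.61-fold for CMPK2 and 1.10-fold for SAMD9. Among IRF1shRNA cells the lowest value was in sample 1 for 7 members and in sample 2 for 3, and the highest was in sample 3 for 5, in sample 2 for 4 and in sample 1 for 1. The median coefficient of variation was 15.6% in controls and 16.8% in IRF1shRNA cells for the members, against 4.34% and 4.81% for genes averaging 1 CPM or more. These sets were not matched for level, and counting error weighs more at low counts. RTP4, at 4, 0 and 6 counts in IRF1shRNA samples 1 to 3, had a coefficient of 87.2% there. For each member, MX2 included, the gap between the lowest control and the highest IRF1shRNA sample was wider than the range within either group. The share of all genes with such a gap was not counted. Nothing is read from the gap, since the same contrast chose the members.

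**Figure D3:**
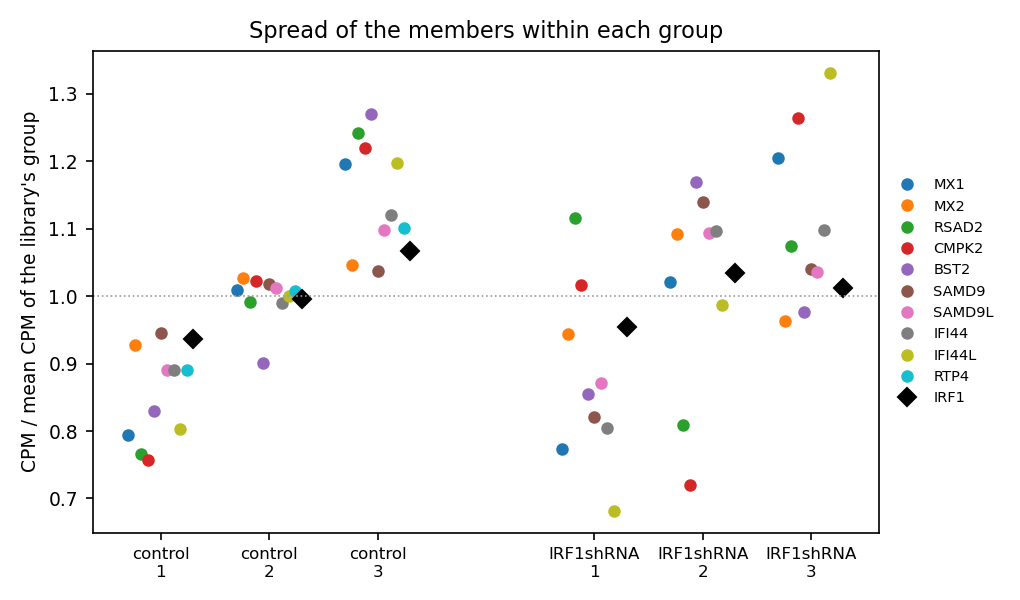
CPM of each member and of IRF1 (black diamonds) in a library, divided by the mean of that library's group (n = 3 each). All members are lowest in control 1 (0.757 to 0.945) and highest in control 3 (1.04 to 1.27), while the IRF1shRNA samples show no single order. RTP4 is left out of the IRF1shRNA groups because of its 0 to 6 counts.

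The genes whose profiles were most like the members were sought over the 6 libraries, as the smallest Euclidean distance between mean-centred log2 CPM and the median of the members. Among 13057 candidates these were IFI6, at a distance of 0.367, OAS3 at 0.832, FYB1 at 0.846, APOL1 at 0.858 and PSMB9 at 1.02. IFI6, a small mitochondrial and endoplasmic reticulum protein of the interferon response, was at 323 ± 56.6 CPM in controls and 14.6 ± 1.41 CPM in IRF1shRNA cells. PSMB9, an immunoproteasome subunit, was at 16.8 ± 2.88 and 1.14 ± 0.190 CPM. The members themselves lay at 0.343 (CMPK2) to 1.71 (RTP4) from their median, apart from MX2 at 4.87. This distance includes the difference between the groups, the contrast that chose the members. The nearest genes had log2 fold changes of −4.46 (IFI6) to −3.84 (PSMB9), so their likeness is a description and not a separate result.

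Other genes of the pathway were taken as lists, chosen like the members with earlier results of these data known. Over all genes tested, 26.4% fell, 24.1% rose and 4.43% fell by over 2-fold, and each list is to be read beside these shares. Of 13 genes of type I interferon signaling, 9 fell, 1 rose and 3 did not pass the threshold, and 5 fell by over 2-fold. USP18, the deubiquitinase that removes ISG15 and damps the receptor, fell by 3.28 ± 0.14 on the log2 scale (from 12.4 to 1.29 CPM, adjusted p = 7.18e-12). The transcription factors IRF7 and IRF9 fell, with log2 fold changes of −1.45 ± 0.10 (adjusted p = 1.87e-09) and −1.43 ± 0.12 (adjusted p = 2.60e-08), all in edgeR. The log2 fold change of STAT2, also past the threshold, was −1.01 ± 0.06. JAK1 was the gene that rose, by 0.15 ± 0.05 (adjusted p = 0.0114, same test), and the receptor chains IFNAR1 and IFNAR2 and the kinase TYK2 did not pass, at log2 fold changes of 0.06, 0.10 and 0.06. The median of the list was −0.29.

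Among 33 other antiviral effectors, 31 were tested, of which 29 fell, 19 of them by over 2-fold, and 0 rose. Their median log2 fold change was −1.98. OAS1 and OAS2, enzymes that sense double-stranded RNA, fell, with log2 fold changes of −5.77 ± 0.14 (57.3 to 1.07 CPM, adjusted p = 5.60e-15) and −5.68 ± 0.13 (168 to 3.30 CPM, adjusted p = 3.62e-15) in edgeR. TRIM22, a ubiquitin ligase of the tripartite motif family, fell by 5.67 ± 0.31 (4.79 to 0.104 CPM, adjusted p = 8.84e-11, same test). Its level in IRF1shRNA samples 1 to 3 rests on only 12, 8 and 12 counts. NT5C3A, a pyrimidine nucleotidase, was among those that did not pass the threshold, at 52.3 and 52.9 CPM. CH25H and ZBP1 had too few counts to be tested.

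Relatives of the members by protein family or activity (dynamins and mitofusins for MX, radical SAM enzymes for viperin, nucleotide kinases for CMPK2, other RTP proteins for RTP4) were then examined. Of 22 such genes, 19 were tested, of which 2 fell, 7 rose and 10 did not pass, with 0 past both the threshold and a 2-fold change and a median log2 fold change of 0.04. Over all genes tested, 26.4% fell and 24.1% rose. The dynamin DNM1 rose by 0.58 ± 0.09 (7.42 to 11.2 CPM, adjusted p = 2.05e-05), the tRNA-modifying enzyme TYW1 by 0.52 ± 0.06 (adjusted p = 1.09e-06) and the mitofusin MFN1 by 0.38 ± 0.04 (adjusted p = 7.22e-07), in edgeR. The 2 that fell were DNM2 and MOCS1, at −0.11 ± 0.04 and −0.24 ± 0.09, named after their values were seen, and leaving out any 1 library left 0 or 1 of these calls. CMPK1, the cytoplasmic counterpart of CMPK2, was past the threshold at 0.24 ± 0.05. RTP3 did not pass, at 0.1203 and 0.0498 CPM, and RTP1, RTP2 and RTP5 had 0 counts in every library.

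Transcripts of proteins known to work with viperin or MX2 showed both directions, as did all genes tested (26.4% lower and 24.1% higher). Of 13, 5 fell, 5 rose and 3 did not pass, with a median log2 fold change of −0.05. CTPS2, which makes the CTP that viperin uses, fell by 1.13 ± 0.07 (29.2 to 13.4 CPM, adjusted p = 3.82e-10), whereas CTPS1 did not pass the threshold at −0.11 ± 0.05 (adjusted p = 0.0570). CIAO2A, an iron-sulfur assembly factor, fell by 0.47 ± 0.06 (adjusted p = 5.91e-06), and PPIA, cyclophilin A, a host protein that binds the HIV-1 capsid, fell by 0.68 ± 0.05 (adjusted p = 2.11e-09). These adjusted p-values are from edgeR. FDPS and CPSF6 also fell, at −0.39 and −0.14. Among the 5 that rose, RANBP2 changed most, by 0.40 ± 0.05. The others were MMS19, CIAO3, HADHB and CIAO1, at 0.23, 0.23, 0.17 and 0.16. Of these, MMS19, CIAO3 and CIAO1 belong to iron-sulfur assembly, as CIAO2A does. The genes that rose, FDPS and CPSF6 were named after their values were seen.

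**Figure D4:**
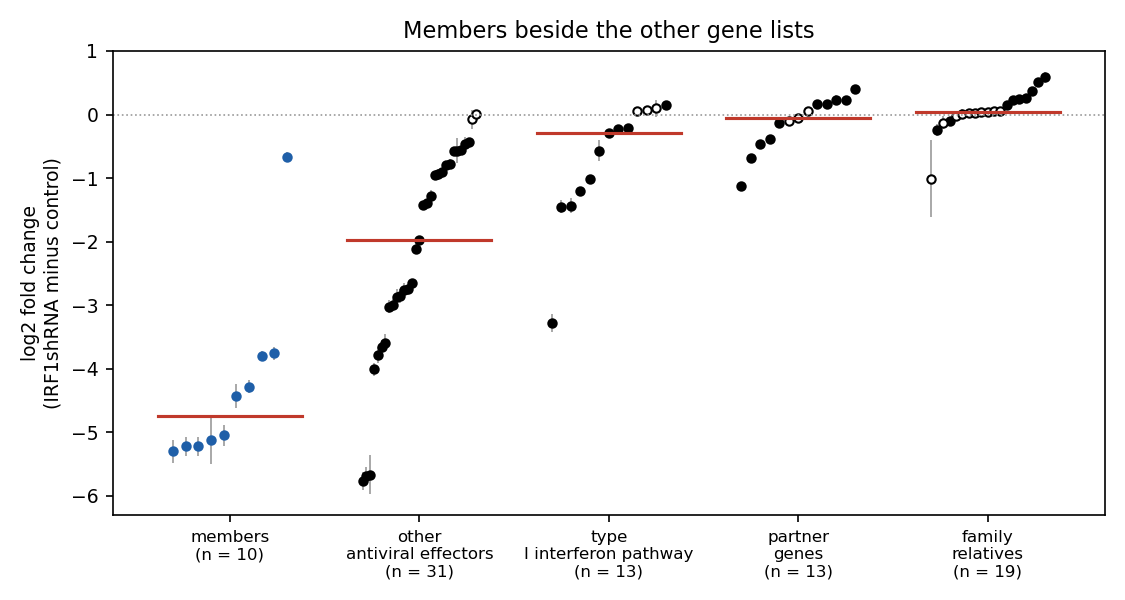
Log2 fold change (IRF1shRNA minus control) of every tested gene of the members and of 4 lists, with the SE as a vertical bar and the median as a red line (−4.74 for the members, −1.98 for other effectors, −0.29 for the pathway, −0.05 for partners and 0.04 for relatives). Filled points outside the members passed the adjusted p threshold of 0.05 and open points did not, and the member set apart near −0.66 is MX2.

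The protein-coding genes that flank the members were compared last. For each member the nearest 2 tested genes on either side were taken, 24 in all, of which 12 fell, 3 rose and 9 did not pass the threshold, with a median log2 fold change of −0.14. Of those that fell, 4 did so by over 2-fold, all on chromosomes 21 and 2. Over all genes tested, 26.4% fell, 24.1% rose and 4.43% fell by over 2-fold. BACE2 lies 79.4 kb from MX2 and fell by 1.20 ± 0.15 on the log2 scale (1.91 to 0.823 CPM, adjusted p = 4.25e-06), and RIPK4, 280.2 kb from MX1, fell by 1.23 ± 0.08 (16.8 to 7.14 CPM, adjusted p = 1.89e-09). On chromosome 2, SOX11, 1139 kb from CMPK2, fell by 1.31 ± 0.06 (adjusted p = 1.02e-11) and ID2, 1781 kb from RSAD2, by 1.02 ± 0.05 (adjusted p = 8.95e-12), all in edgeR. The closest tested gene there, RNF144A, 19.2 kb from RSAD2, fell by less than 2-fold, at −0.92 ± 0.08 (adjusted p = 2.27e-08, same test). BACE2 and RIPK4, on either side of the MX genes, both had larger decreases than MX2 itself. Beside SAMD9 and SAMD9L, FAM133B (0.21 ± 0.07) and CDK6 were past the threshold in the higher direction. CDK6 rose by 0.54 ± 0.04 (99.1 to 144 CPM, adjusted p = 2.06e-08), while VPS50, at 28.0 and 27.8 CPM, and TFPI2, at 9.35 and 8.36 CPM, did not pass the threshold in edgeR. The count of genes that rose was 1 instead of 3 when control 2 was left out.

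**Figure D5:**
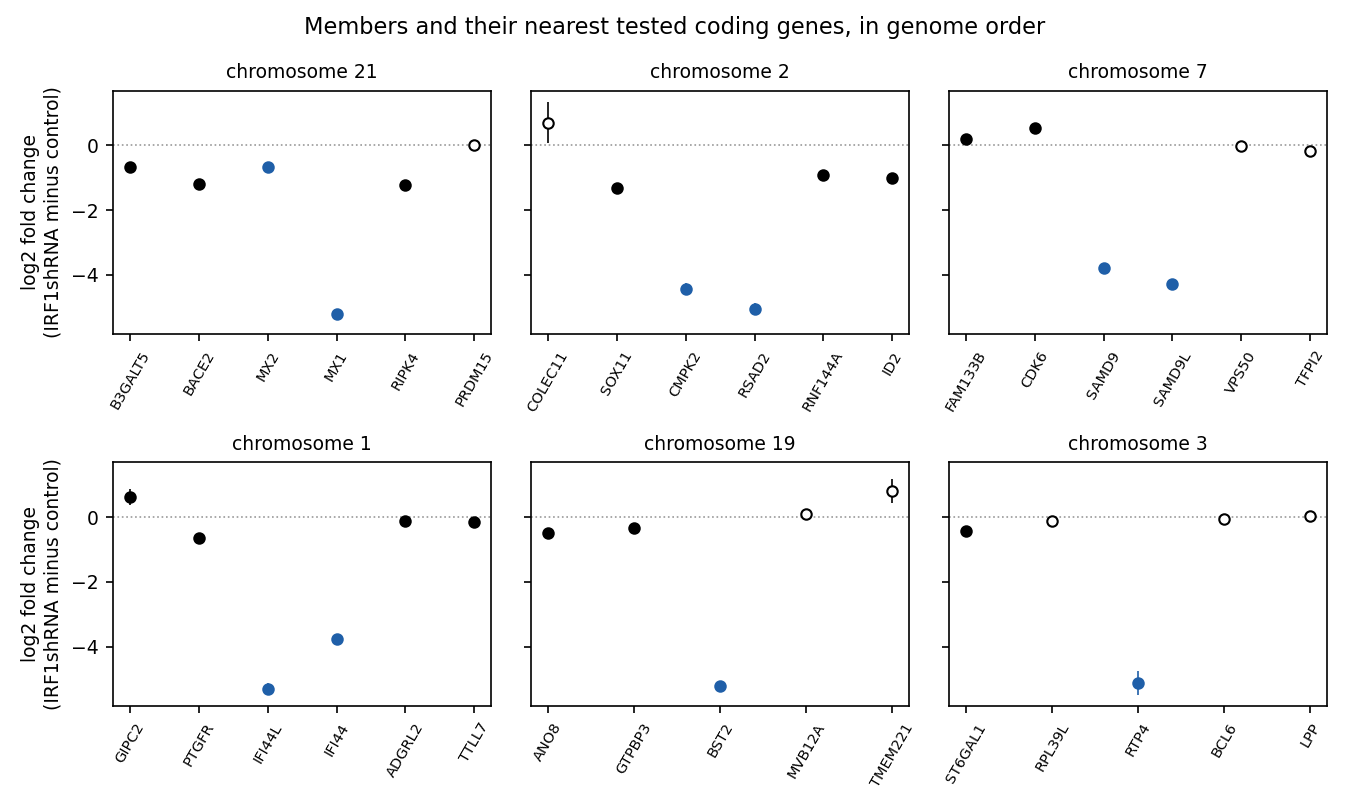
Log2 fold change (IRF1shRNA minus control, with SE) of the members (blue) and of the nearest 2 tested protein-coding genes on each side, in genome order at 6 loci. Filled black points passed the adjusted p threshold of 0.05 and open points did not, and no flanking gene reached the decrease of a member other than MX2, the largest being SOX11 at −1.31.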

How the data were processed

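RNA-seq was performed on 3 control and 3 IRF1shRNA samples. The deposited values are raw counts for each symbol in 6 samples, and the submitters' processing notes name CASAVA 1.8.2, STAR 2.7.9a, featureCounts, DESeq2 1.24.0 and GRCh38.p7. The annotation release and strand setting are not given in the sources used here. Among counts of 2 to 11, 72.1% to 75.2% were even, so mates appear to have been counted separately, and halved counts were run as an alternative.

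Counts were tested with edgeR 4.0.16 (R 4.3.3), as a quasi-likelihood test with TMM scaling, group as the single factor, filterByExpr (minimum count 10) and p-values adjusted over 18851 genes after Benjamini-Hochberg. The test was checked on simulated data. DESeq2 1.42.0 was an alternative. The members and lists were chosen with earlier results of these data known. Genes named are the members, IRF1, the 3 largest changes past the threshold per list with a mean of at least 1 CPM, flanking genes past it with over 2-fold change, and the 5 nearest profiles (pseudocount 0.01 CPM). Others were named after their values were seen. Coordinates come from GENCODE release 29 and RefSeq. Floors cover counting error only. Some genes of the lists are counted but not reported by name here.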

Additional observations from a re-analysis of the deposited data

How the results depend on the processing

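The members kept their direction under each of the 15 alternatives that gave a value, and each stayed past the threshold except MX2 under the test against a 2-fold change (glmTreat). The same contrast chose the members, so nothing is read from their staying past it. RTP4 was not tested in 1 of them, as the 1 CPM filter (reached in 3 samples or more) removed it. The log2 fold change ranged from −5.42 to −5.05 for MX1, from −0.72 to −0.61 for MX2, from −5.68 to −5.05 for IFI44L and from −5.50 to −4.87 for RTP4. The replicate numbers are shared between groups, but the deviations of same-numbered samples correlated at 0.0137, 0.0250 and −0.00724, so they were not taken as pairs. In the fit with a replicate block, the values were −5.23 for MX1, −0.66 for MX2 and −1.74 for IRF1, and 10 members were lower. The glmTreat test called 377 genes lower and 127 higher, including 4 lower and 0 higher in the pathway, 19 lower of the other effectors, 0 and 0 of the relatives, 0 and 0 of the partners, and 1 lower and 0 higher of the neighbours. Under glmTreat 10 of the single-gene values, MX2 among them, also no longer passed the threshold, which happened under no other alternative. Library size only gave 3 pathway genes higher. The 2 relatives called lower became 0 under DESeq2, upper quartile scaling, library size only and the 1 CPM filter, and 1 under DESeq2 size factors, no filter and halved counts. Leaving out each replicate gave 0 to 1 of them, and 1 to 3 neighbours higher. The cause was not tested in these cases. The ISRE core was found for 7 members also before the start only. Depth limits RTP4 most, with 0 to 6 counts in IRF1shRNA libraries.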
